A study of Mus musculus with 13 samples.

Results

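The lysosomal enzyme and membrane genes described here are 37 genes listed by symbol and found through the Ensembl identifiers of the count table, among 38377 identifiers in all. They hold 8 proteases, 13 glycosidases (with Aga counted among them), 6 sulphatases or acetyltransferases, 7 lipid enzymes, lipid carriers or activators, and 3 membrane proteins. The rule uses their names and no measured value, but the list was chosen with earlier results of these data known. Each was followed across 13 mouse RNA-seq libraries in 6 groups.

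All libraries came from female mouse cells. Extraembryonic endoderm (XEN) stem cells were grown in DMEM with serum, and were wild type (2 libraries), deleted for Xist on the paternal X (dXist, 3 libraries), wild type treated with 20 uM 5-aza-2'-deoxycytidine (Aza, 2 libraries), or deleted and treated (2 libraries). Epiblast stem cells (EpiSC) were grown on matrigel with FGF2 and Activin, and were wild type (2 libraries) or heterozygous for an Xist deletion (2 libraries). The study set out to measure expression after loss of Xist, whose RNA silences an X chromosome in female cells, and after Aza, an inhibitor of DNA methylation. The labels do not say whether the libraries of a group were separate clones, cultures or preparations, so each p-value reflects the spread between libraries alone, which may be technical.

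Lysosomes are acidic organelles that break down proteins, glycans and lipids delivered by endocytosis and autophagy. Most of their soluble enzymes are tagged with mannose 6-phosphate in the Golgi and carried to the lysosome by receptors, while a proton pump, the V-ATPase, acidifies the lumen. Transcription factors of the TFEB family bind a short E-box motif in many lysosomal promoters. Visceral endoderm, an extraembryonic tissue, takes up and digests maternal proteins for the embryo, and lysosomes are prominent in it.

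Total counts ran from 5848454 to 35247432 per library. Xist was counted at 1550 and 1586 CPM (counts scaled to library size) in wild-type XEN, at 1.16 to 4.78 CPM in the 3 dXist XEN libraries, at 206 and 815 CPM in wild-type EpiSC and at 0.276 and 0.435 CPM in dXist EpiSC. The library labelled treated dXist XEN 2 held 242 CPM of Xist against 14.6 CPM in treated dXist XEN 1. The deletion is on the paternal X only, so Xist counts alone cannot say whether library 2 goes against its label. Results on treated dXist XEN are given with and without that library. All 8 extraembryonic endoderm markers reached 1 CPM in every XEN library, and all 8 epiblast markers did so in every EpiSC library. In both wild-type EpiSC libraries 4 of the 8 endoderm markers also reached 1 CPM, with Dab2 highest at 89.0 and 30.2 CPM. The epiblast marker Dnmt3b held 165 and 206 CPM in wild-type XEN, against 177 and 154 CPM in wild-type EpiSC. The 8 fibroblast markers summed to 677 to 797 CPM in wild-type EpiSC, 165 to 227 CPM in dXist EpiSC and 2.09 to 18.2 CPM in XEN, and their part in the EpiSC results was not tested. The 7 macrophage markers, from cells rich in lysosomes, summed to no more than 3.55 CPM in any library. Mitochondrial ribosomal RNAs and Rn7sk, which lack long poly(A) tails, took 10.4 to 13.5% of counts in 4 libraries (both treated wild-type XEN libraries and library 2 of each EpiSC group) and at most 0.279% in the other 9. Library type therefore cannot be told apart from Aza treatment in wild-type XEN, and is balanced between the EpiSC groups.

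XEN cells held several times more lysosomal message than EpiSC. The 37 genes together made up 7131 and 9765 CPM in wild-type XEN, and 2499 and 2351 CPM in wild-type EpiSC. In dXist EpiSC the sum was 2496 and 2365 CPM, within the range of the wild-type pair. The treated wild-type XEN sums were also close to each other, at 7735 and 7928 CPM. Both groups of dXist XEN were far more spread, at 17070, 19899 and 8960 CPM untreated and 7044 and 19364 CPM treated. In bulk RNA, fewer cells of a kind and less RNA per cell cannot be told apart.

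**Figure D1:**
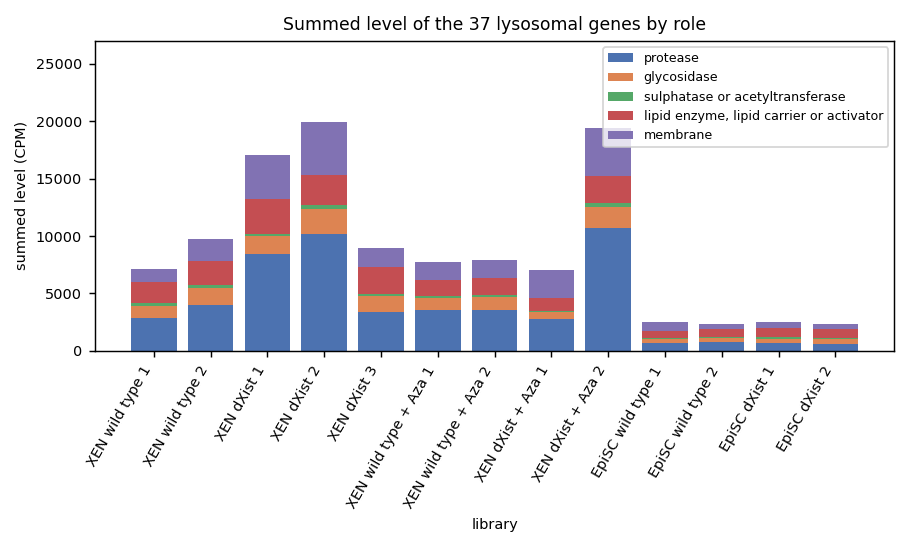
Summed level of the 37 lysosomal genes in each library (CPM, vertical axis), with 1 stacked bar per library and 1 colour per role. The 4 EpiSC bars lie between 2351 and 2499 CPM, below all 9 XEN bars, and dXist XEN libraries 1 and 2 and treated dXist XEN library 2 are the highest bars.

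A few genes carried most of this message. To compare genes, levels were divided by the length of all annotated exons of a gene together, which can exceed that of its transcript. The order therefore depends on the annotation. Per kilobase of exon, Lamp1 (a heavily glycosylated protein of the lysosomal membrane) led in wild-type XEN with 474 CPM per kb. Psap, the precursor of the saposins that help enzymes reach sphingolipids, followed with 339 CPM per kb, and the cysteine proteases Ctsz and Ctsl with 226 and 212 CPM per kb. The acid ceramidase Asah1 came next at 110 CPM per kb, and the median of the 37 genes was 22.9 CPM per kb. Without division by length, Ctsl led with a mean of 1374 CPM (6489 bases of exon), ahead of Lamp1 with 1267 CPM (2675 bases). The lowest were Gusb at 0.140 CPM per kb and Hexa at 0.223 CPM per kb. In wild-type EpiSC the order at the top was the same for the first 4 genes, from Lamp1 at 98.0 to Ctsl at 42.0 CPM per kb, with a median of 8.44 CPM per kb. There Ctsc, with no count, and Idua at 0.711 CPM per kb were the lowest.

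**Figure D2:**
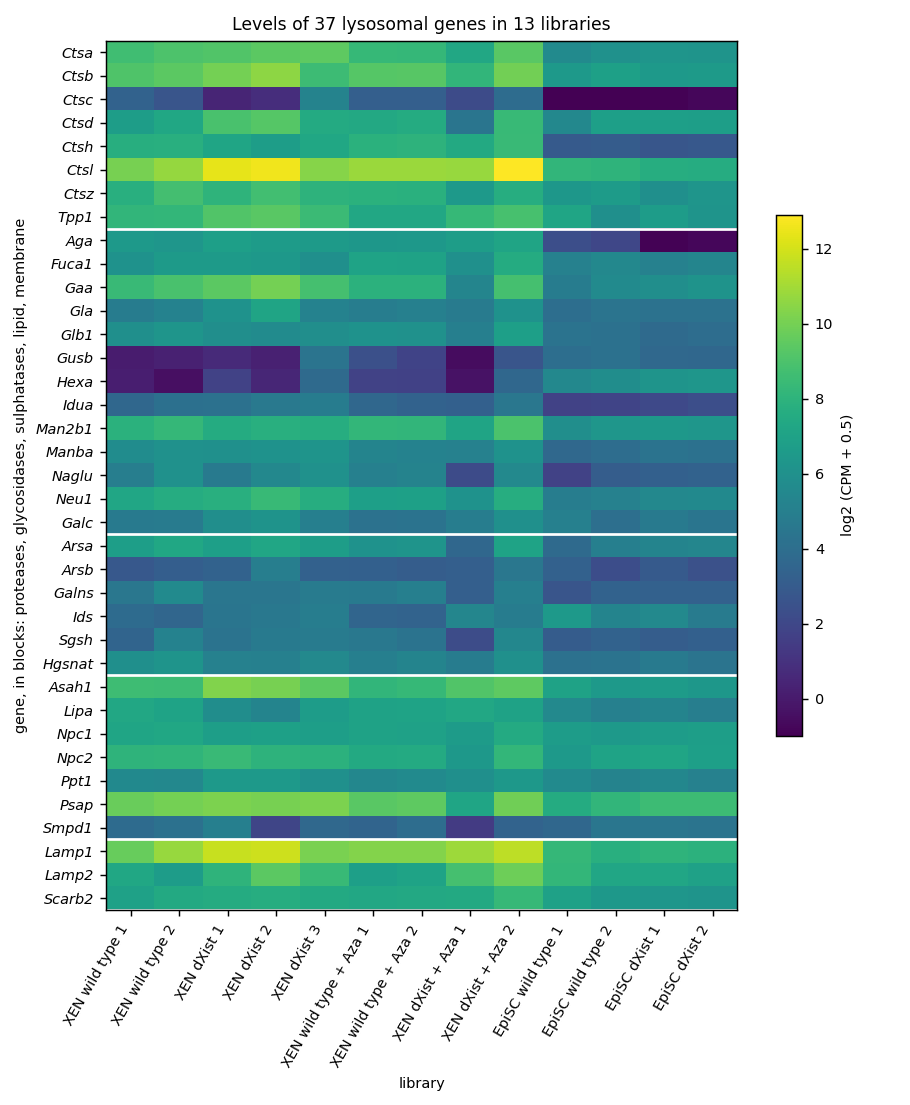
Level of each of the 37 genes (rows, in blocks by role) in each of the 13 libraries (columns), as log2 of CPM with 0.5 added. Hexa and Gusb are dark in most XEN columns and bright in EpiSC, Ctsc is dark in EpiSC, and Aga is dark in the 2 dXist EpiSC columns.

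Between the wild types, 24 of the 37 genes were lower in EpiSC than in XEN and 3 were higher, at a Benjamini-Hochberg adjusted p under 0.05 in edgeR's quasi-likelihood test over all genes. Of all 19733 genes tested, 14.1% were called lower and 16.8% higher. The median log2 change of the 37 genes was -1.88, and that of all genes tested was 0.13. The genes called lower fell in every role: 7 of 8 proteases, 9 of 13 glycosidases, 3 of 6 sulphatases or acetyltransferases, 4 of 7 lipid genes and 1 of 3 membrane genes. With a term for library type over all libraries 21 were called, where 13.1% of genes were called higher and 8.99% lower. Leaving out wild-type EpiSC library 1 left 16 genes called, 2 of them higher, and 14 of the 27 genes were called under all 10 settings tried. These 14 were Ctsa, Ctsh, Aga, Gaa, Glb1, Hexa, Idua, Man2b1, Manba, Neu1, Arsa, Ids, Hgsnat and Asah1.

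**Figure D3:**
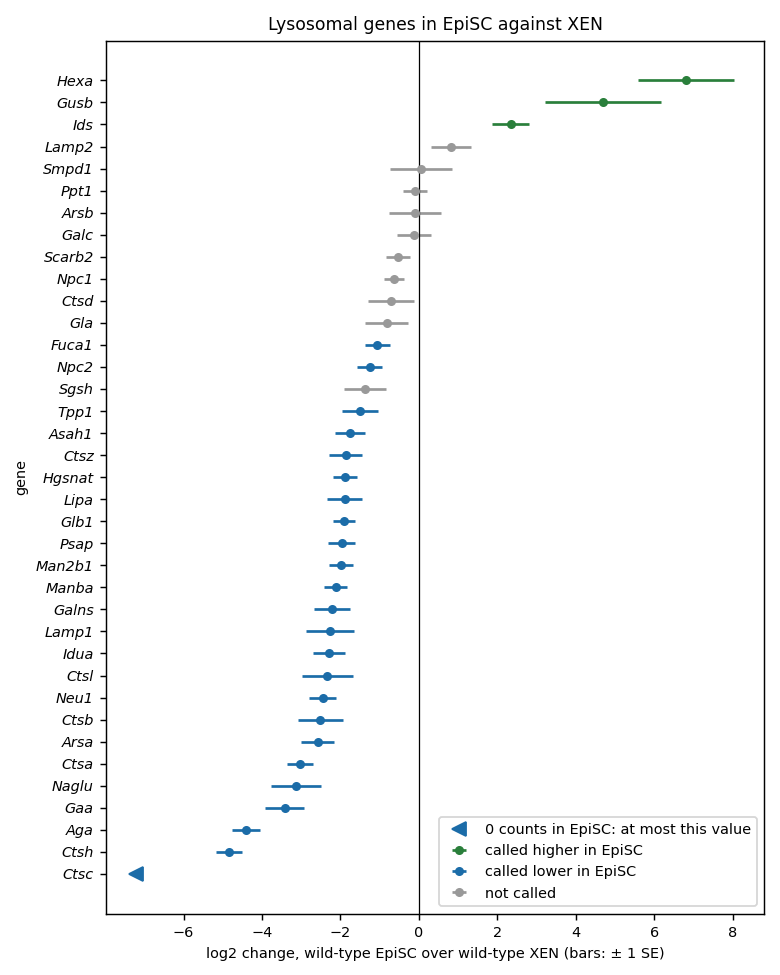
Log2 change of each gene in wild-type EpiSC over wild-type XEN (horizontal axis), with bars of 1 SE from the edgeR fit, ordered by size. The triangle marks Ctsc, counted 0 times in EpiSC, at the value its floor of 3 counts allows; 24 genes are called lower and 3 (Hexa, Gusb and Ids) higher.

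Among the proteases, Ctsh, an aminopeptidase of the papain family, showed the smallest adjusted p. Its level was 210.2 and 217 CPM in wild-type XEN and 7.28 and 7.65 CPM in wild-type EpiSC, a log2 change of -4.84 (SE 0.32, adjusted p = 5.57e-05). Ctsc, which activates granule serine proteases by removing dipeptides, was counted at 9.81 and 5.93 CPM in XEN and not at all in either EpiSC library. Against a floor of 3 counts over the EpiSC group it was at least 147-fold lower (adjusted p = 0.0278). Ctsc was called in 5 of the 9 settings that gave it an adjusted p, and was lost on leaving out any wild-type library. Ctsa, the protective protein that stabilises the sialidase Neu1 and the galactosidase Glb1, fell from 404 and 528 CPM to 50.2 and 64.3 CPM (log2 change -3.03, SE 0.33, adjusted p = 0.000347). All 3 sets of values were separated between the cell types without overlap.

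Ctsb and Ctsl, the broad endopeptidases of the lumen, were lower as well. Ctsb went from 540.5 and 669 CPM in XEN to 90.2 and 121 CPM in EpiSC, and Ctsl from 1074 and 1673 CPM to 286 and 259.7 CPM. Their log2 changes were -2.52 (SE 0.58) and -2.33 (SE 0.66). Ctsz and Tpp1, an exopeptidase and a tripeptidyl peptidase, were called lower by smaller steps (-1.87 and -1.50). Ctsl and Tpp1 were each called in 6 of 10 settings, Ctsz in 8 and Ctsb in 9. The aspartyl protease Ctsd was the exception: 107 and 157 CPM in XEN overlapped 45.0 and 117 CPM in EpiSC, and it was not called (adjusted p = 0.371).

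Glycosidases, which trim sugars from glycoproteins, glycolipids and glycogen, changed in both directions and held the largest increase in EpiSC of the 37 genes. Aga cuts the bond between asparagine and the glycan, not a bond between sugars, and is counted here with the glycosidases. It stood at 91.4 and 79.5 CPM in XEN and 4.60 and 3.44 CPM in EpiSC (log2 change -4.41, SE 0.36, adjusted p = 9.31e-05). The acid glucosidase Gaa, which degrades glycogen, went from 347 and 491 CPM to 28.4 and 50.2 CPM (-3.41, SE 0.50). Naglu, an enzyme of heparan sulphate breakdown, went from 30.6 and 65.6 CPM to 2.85 and 8.13 CPM (-3.14, SE 0.64). In each case both EpiSC libraries lay below both XEN libraries.

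The remaining called glycosidases were lower by smaller steps. The sialidase Neu1 stood at 148 and 197 CPM in XEN against 29.5 and 33.5 CPM in EpiSC. Idua, which acts on heparan and dermatan sulphate, stood at 12 and 17.3 CPM against 2.88 and 3.10 CPM. The mannosidases Manba (54.6 and 66.1 against 12.3 and 15.4 CPM) and Man2b1 (236 and 306 against 57.6 and 78.7 CPM) changed by -2.13 and -1.99 on the log2 scale. Glb1 and the fucosidase Fuca1 were also called lower (-1.90 and -1.06), Glb1 in all 10 settings and Fuca1 in 4. The galactosidase Gla and the galactocerebrosidase Galc were not called (adjusted p = 0.256 and 0.848).

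Hexa and Gusb ran the other way. Hexa encodes the alpha subunit of beta-hexosaminidase A, which degrades ganglioside GM2, and Gusb encodes beta-glucuronidase. Hexa was counted 19 and 8 times in wild-type XEN (0.636 and 0.255 CPM) and at 45.1 and 56.1 CPM in wild-type EpiSC. The mean level was 114-fold higher in EpiSC, and the fitted log2 change was 6.82 (SE 1.23, adjusted p = 0.00431). Gusb was counted 16 and 23 times in wild-type XEN (0.536 and 0.733 CPM) and at 15.6 and 17.5 CPM in EpiSC (log2 change 4.69, SE 1.48, adjusted p = 0.0409). The Hexa call was kept in all 10 settings, while Gusb was called in 4 of the 9 settings that gave it an adjusted p, which reached 0.184. It was lost on leaving out any 1 of the 4 wild-type libraries and with library type as a term.

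In wild-type XEN, most of the genes beside them were counted at higher levels than Hexa and Gusb themselves. These neighbours were chosen after the values were seen, and no comparison with EpiSC is made for them here. Hexa lies at chr9:59539540-59565109 on GRCm38. Arih1, 52.9 kb away, held 103 and 97.6 CPM in wild-type XEN, Parp6 on the other side 17.8 and 8.80 CPM, and Pkm 1048 and 1844 CPM. Gusb lies at chr5:129989011-130003049. Its neighbours Vkorc1l1 (2.32 kb away) and Asl (8.21 kb away) held 47.6 and 32.7 CPM, and 18.3 and 32.4 CPM. Nupr1l, 75.2 kb from Gusb, held 0.167 and 0.223 CPM, below Gusb itself.

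The 250 bases before the start of these genes are shown because Aza acts on methylation of CpG dinucleotides, which are in capitals below. Methylation itself was not measured. Sequences are from RefSeq on GRCm38.p6, for Hexa chr9:59539290-59539539 on the plus strand and for Gusb chr5:130003050-130003299 on the minus strand, each written 5′ to 3′.
Hexa: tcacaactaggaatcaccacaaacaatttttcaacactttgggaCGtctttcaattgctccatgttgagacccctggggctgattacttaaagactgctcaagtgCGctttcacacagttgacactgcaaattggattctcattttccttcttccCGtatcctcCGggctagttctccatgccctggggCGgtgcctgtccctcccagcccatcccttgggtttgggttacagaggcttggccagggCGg
Gusb: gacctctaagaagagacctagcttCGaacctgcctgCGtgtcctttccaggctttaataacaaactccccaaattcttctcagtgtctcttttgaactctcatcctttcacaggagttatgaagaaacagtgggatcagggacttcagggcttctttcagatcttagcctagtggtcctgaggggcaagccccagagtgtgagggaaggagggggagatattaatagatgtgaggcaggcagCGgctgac
The Hexa stretch holds 6 CpGs and the Gusb stretch 3. The median was 9 over the 32 promoters of 30 of the 37 genes in the RefSeq table and 6 over all 32851 promoters, of which 49.6% held fewer CpGs than Hexa and 29.0% fewer than Gusb.

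Both genes varied widely across the other XEN libraries. Hexa stood at 2.89, 0.934 and 13.4 CPM in dXist XEN, 2.82 and 2.69 CPM in treated wild-type XEN, and 0.307 and 12 CPM in treated dXist XEN. Gusb stood at 1.09, 0.710 and 19.8 CPM, 4.82 and 3.01 CPM, and 0.184 and 5.90 CPM in the same libraries. Every one of the treated wild-type values lay above both untreated wild-type values, and dXist library 3 was the highest XEN library for both genes. None of these differences was called in the main edgeR fit. Without the filter on low counts both genes were called higher in dXist XEN, where 0.849% of all genes were called higher and 1.07% lower. In treated against untreated wild-type XEN the log2 changes were 2.7 (SE 1.58) for Hexa and 2.69 (SE 1.74) for Gusb, with edgeR adjusted p = 0.527 and 0.569. The treated wild-type values rest on 17 and 25 counts of Hexa and 29 and 28 counts of Gusb in the 2 shallowest libraries, which are also rich in RNAs without long poly(A) tails.

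**Figure D4:**
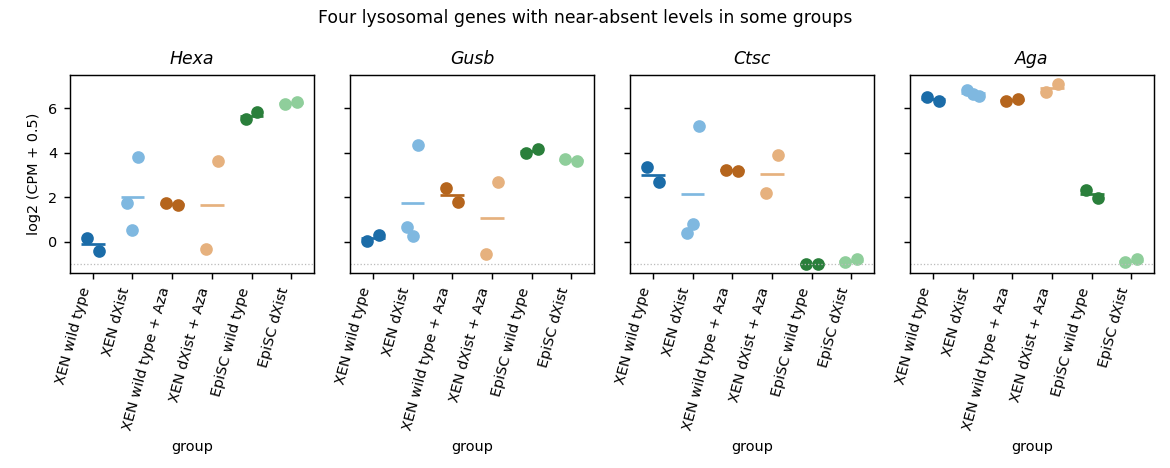
Level of Hexa, Gusb, Ctsc and Aga in each library (points, log2 of CPM with 0.5 added) by group, with a line at each group's mean on that scale and a dotted line at 0 CPM. Hexa and Gusb are near the dotted line in wild-type XEN, Ctsc is on or beside it in EpiSC, and Aga drops to it in dXist EpiSC alone among the 6 groups.

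Sulphatases remove sulphate groups from glycosaminoglycans and sulpholipids. Arsa, which acts on sulphatide, stood at 112 and 158 CPM in wild-type XEN and 13.6 and 31.5 CPM in wild-type EpiSC (log2 change -2.58, SE 0.43, adjusted p = 0.00251). Galns, which acts on keratan sulphate, stood at 22.6 and 49.9 CPM against 5.76 and 9.87 CPM (-2.21, SE 0.46). The acetyltransferase Hgsnat of heparan sulphate breakdown was also lower (-1.88). Ids, an X-linked sulphatase that acts on heparan and dermatan sulphate, was higher in EpiSC: 14.1 and 11.5 CPM in XEN against 92.5 and 38.1 CPM in EpiSC (2.34, SE 0.47, adjusted p = 0.00605). The EpiSC pair for Ids differed more than 2-fold, with the lower value in the library rich in RNAs without long poly(A) tails. Sgsh and Arsb were not called (adjusted p = 0.0749 and 0.917).

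Of the lipid genes, Psap (-1.97), the acid lipase Lipa (-1.89), Asah1 (-1.76) and the sterol carrier Npc2 (-1.26) were lower in EpiSC. They were called in 9, 7, 10 and 6 of 10 settings, in that order. The sphingomyelinase Smpd1, the thioesterase Ppt1 and the sterol exporter Npc1 were not called, with log2 changes of 0.06, -0.09 and -0.64. Of the membrane proteins, Lamp1 stood at 827 and 1706 CPM in XEN and 309.9 and 214 CPM in EpiSC (-2.27, SE 0.61, adjusted p = 0.0213). Lamp1 was called in 7 of 10 settings. Its relative Lamp2, encoded on the X, stood at 155 and 101 CPM against 299.8 and 152 CPM, overlapping, and was not called (0.81, SE 0.51, adjusted p = 0.237). Scarb2, which carries glucocerebrosidase to the lysosome, was not called either (-0.53, adjusted p = 0.197).

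Other lysosomal machinery was counted by the same test, in which 14.1% of all genes were called lower and 16.8% higher. Of 19 further hydrolases and cofactors, 12 were lower in EpiSC and 1 higher, among them the asparaginyl protease Lgmn (-3.68; 696 and 1053 CPM in XEN, 65.0 and 71.5 CPM in EpiSC) and the phospholipase Pla2g15 (-2.77). Of 15 further membrane proteins and transporters, 7 were lower, among them the cystine exporter Ctns (-3.54), the tetraspanin Cd63 (-2.95) and the calcium channel Mcoln1 (-1.63), and 1 was higher. The V-ATPase had 6 of 17 subunit genes lower and none higher, with Atp6v0a1 (-2.65), Atp6ap1 (-1.51) and Atp6v1b2 (-1.75) first by adjusted p. Of 4 cathepsin inhibitors, Cst3 (-2.05) and Serpinb6a (-1.74) were lower. Autophagy genes had 3 of 16 lower: Atg9a, Map1lc3a and Gabarapl2.

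The sorting and control genes were mixed, and their counts stand against the same 14.1% lower and 16.8% higher among all genes. Of 12 genes of mannose 6-phosphate tagging and sorting, 4 were lower, with the adaptors Gga2 (-2.64) and Gga1 (-1.86) first, and the sorting receptor Sort1 was higher (15.7 and 22.9 CPM in XEN, 221 and 189.6 CPM in EpiSC, log2 change 3.41, SE 0.38, adjusted p = 0.000375). Of 17 transcription factor and mTORC1 docking genes, 4 were lower and 1 higher. Tfeb stood at 39.4 and 51.6 CPM in XEN and 1.47 and 3.53 CPM in EpiSC (-4.19, SE 0.68, adjusted p = 0.00225). Its relative Tfec was counted at 3.65 and 8.51 CPM in XEN and not at all in EpiSC, at least 114-fold lower. Tfe3, a further relative encoded on the X, held 91.3 and 99.1 CPM in XEN and 90.5 and 104 CPM in EpiSC.

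The 8-base form of the E-box bound by the TFEB family, GTCACGTG (CACGTGAC on the other strand), was searched for on both strands of the 250 bases before each start. It was present in 8 of the 32 promoters of these genes (25%) and in 607 of all 32851 promoters (1.85%). Its 6-base core CACGTG, which every such match contains, was in 10 of 32 (31.2%) and 6.02%. The sites below, with the motif in capitals and up to 12 bases on each side, are shown for 4 genes that were lower in EpiSC (Lamp1, Ctsa, Naglu and Arsa) and 2 that were not called (Gla and Ctsd). They are from RefSeq on GRCm38.p6, written 5′ to 3′ on the gene's strand.
Lamp1: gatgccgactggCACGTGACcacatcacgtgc
Ctsa: aatgagcaaactGTCACGTGatgcag
Naglu: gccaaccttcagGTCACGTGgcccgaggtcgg
Arsa: cttcaactcagtGTCACGTGttgtctgctc
Gla: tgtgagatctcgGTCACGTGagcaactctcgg
Ctsd: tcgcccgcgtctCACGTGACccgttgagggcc
The stretches lie at chr8:13159121-13159152 (Lamp1), chr2:164833747-164833772 (Ctsa), chr11:101070007-101070038 (Naglu), chr15:89477425-89477454 (Arsa), chrX:134601182-134601213 (Gla) and chr7:142387906-142387937 (Ctsd). The other genes with the 8-base form were Glb1 and Sgsh, and Ctsd held it at 1 further place. A match is a description of the letters, and binding was not measured.

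In XEN cells deleted for paternal Xist, none of the 37 genes was called against wild type by edgeR. The background was 0.0% of 18393 genes called higher and 0.0217% called lower. At an unadjusted p under 0.05 there were 7 genes higher and 1 lower, where 4.72% of all genes were higher and 6.01% lower. DESeq2 called 2, Asah1 and Lamp2, both higher, with 1.07% of genes called higher and 1.68% lower by it. The median log2 change of the genes was 0.47, and that of all genes tested was 0.00. In 15 genes all 3 dXist libraries lay above both wild-type libraries, against 13.6% of all genes, and in 6 they lay below both, against 14.8%.

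The dXist XEN libraries did not move together. Ctsl stood at 5375 and 6289.9 CPM in libraries 1 and 2 and at 1346 CPM in library 3, which lay between the wild-type values of 1074 and 1673 CPM. Lamp1 stood at 3413, 3730.1 and 1119 CPM against 827 and 1706 CPM, and Ctsd at 489, 593 and 179 CPM against 107 and 157 CPM. In all 3 genes, libraries 1 and 2 were well above the wild type and library 3 was within or just above it. Ctsc went the other way, at 0.833 and 1.23 CPM in libraries 1 and 2 and 36.6 CPM in library 3, with 9.81 and 5.93 CPM in wild type. Against the wild-type mean, 8, 11 and 5 genes were more than 2-fold higher in libraries 1, 2 and 3, and 2, 4 and 0 were more than 2-fold lower. Among all genes of at least 10 CPM, 9.66%, 9.19% and 2.65% were more than 2-fold higher in these libraries, and 10.9%, 12.8% and 6.50% more than 2-fold lower.

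**Figure D5:**
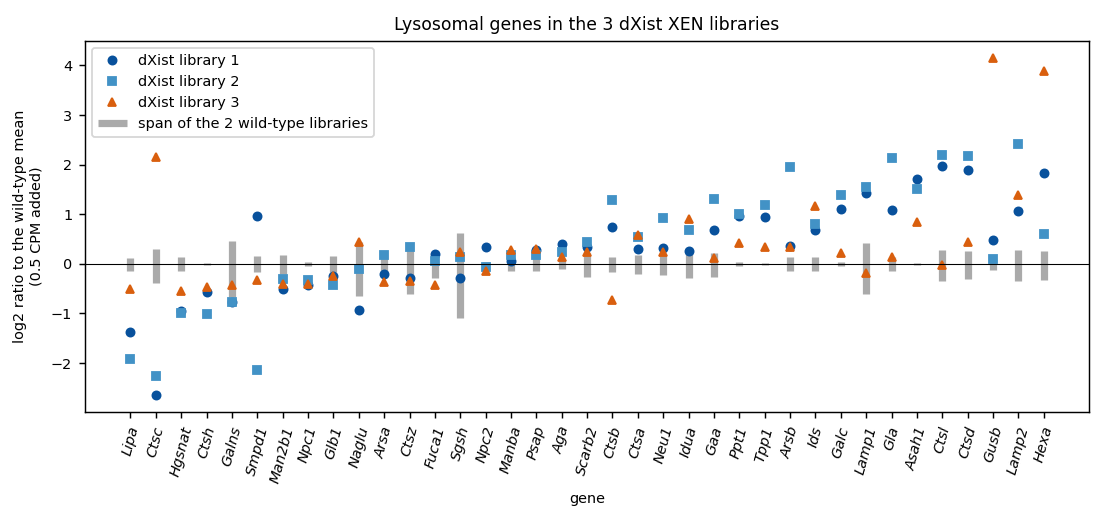
Log2 ratio of each gene in each dXist XEN library (points) to the wild-type XEN mean, with 0.5 CPM added, and grey bars spanning the 2 wild-type libraries. Genes are ordered by the mean of the 3 ratios; libraries 1 and 2 lie together above library 3 for Ctsl, Ctsd and Lamp1, and library 3 is far above them for Ctsc, Gusb and Hexa.

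Asah1 and Lamp2 had the smallest p-values in this comparison. Asah1 stood at 1227, 1057 and 669 CPM in dXist XEN and 378 and 369 CPM in wild type, without overlap (log2 change 1.39, SE 0.36, adjusted p = 0.305, range 0.00689 to 0.768 over the alternatives). Lipa, the gene with the lowest change, stood at 55.6, 38.3 and 102 CPM against 159 and 132 CPM (-1.15, SE 0.40, adjusted p = 0.399). Without dXist library 3, Asah1 was called higher and Lipa lower, where 0.865% of genes were called higher and 2.0% lower. Without the filter on low counts, 5 genes were called higher (Ctsd, Ctsl, Gusb, Hexa and Lamp2), where 0.849% of genes were called higher and 1.07% lower.

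The genes encoded on the X were Lamp2, Gla and Ids. Lamp2, needed for fusion of autophagosomes with lysosomes, stood at 268, 683 and 335 CPM in dXist XEN against 155 and 101 CPM in wild type (log2 change 1.75, SE 0.52, adjusted p = 0.355). Ids stood at 20.8, 22.8 and 29.3 CPM against 14.1 and 11.5 CPM (0.92, SE 0.36, adjusted p = 0.422). Gla stood at 67.3, 141 and 34.7 CPM against 28.4 and 34.9 CPM (1.35, SE 0.60, adjusted p = 0.466). Lamp2 and Ids were above the wild type in all 3 dXist libraries, and Gla in 2 of 3. The X-linked genes of the related lists were not called either: Tfe3 (0.35), Atp6ap1 (0.65), Atp6ap2 (0.88) and Rragb (3.33, SE 1.20), which held 8.11, 6.73 and 0.679 CPM against 0.201 and 0.797 CPM.

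Aza in wild-type XEN left the lysosomal genes without a call. edgeR called none of the 37, where 0.549% of 18393 genes were called higher and 0.0326% lower. DESeq2 called none either, where 2.88% were higher and 0.636% lower, and none had an unadjusted p under 0.05, where 12.4% of all genes did. The median log2 change was -0.06, against -0.04 for all genes tested. In 6 genes both treated libraries lay above both untreated ones and in 14 below, where 28.1% and 31.7% of all genes did so. The raw counts of the treated pair differed with a chi-square of 3.89 per gene, against 75.5 to 524 for the other pairs of a group. This statistic grows with depth and the treated libraries are the 2 shallowest, so the values do not compare closeness on equal terms. The treated libraries differed beyond counting error and were kept as 2, but whether they are separate cultures is not given in the labels. Lamp1 stood at 1263 and 1272 CPM, within the untreated 827 and 1706 CPM, and Psap at 662 and 699 CPM, below the untreated 847 and 1015 CPM but not called. The smallest adjusted p was that of the peptidase Tpp1, at 161 and 159 CPM against 284 and 292 CPM (log2 change -0.76, SE 0.38, adjusted p = 0.461).

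In dXist XEN, Aza again gave no call among the 37 genes by edgeR or DESeq2, with 2 genes at an unadjusted p under 0.05 (Ctsz lower, Lipa higher), where 26.8% of all genes were. The background was 0.0707% of genes called higher and 0.00544% lower by edgeR, and 8.8% and 6.99% by DESeq2. The 2 treated dXist libraries differed strongly. Psap stood at 143 CPM in library 1 and 935 CPM in library 2, Gaa at 40.1 and 447 CPM, Ctsd at 20.6 and 331 CPM, and Arsa at 12 and 132 CPM. Untreated dXist XEN held 1048 to 1152 CPM of Psap, 453 to 1035 CPM of Gaa, 179 to 593 CPM of Ctsd and 105 to 152 CPM of Arsa. Library 1 was thus below the untreated range for all 4 genes, and library 2 was within it for Ctsd and Arsa and just below it for Psap and Gaa.

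Other genes of treated dXist library 1 did not share these low values. Lamp1 stood at 1853 CPM in library 1 and 2893 CPM in library 2, Lamp2 at 439 and 922 CPM, and Aga at 107 and 138 CPM, and all 3 were within the untreated dXist range in library 1. Against the untreated dXist mean, 20 of the 37 genes were more than 2-fold lower in library 1 and none was in library 2, where 28.1% and 7.62% of all genes of at least 10 CPM were. The median log2 ratios were -1.29 and 0.10. Without library 2, the one that held Xist, 13 genes were called lower and none higher: Ctsa, Ctsd, Ctsz, Gaa, Glb1, Idua, Manba, Naglu, Neu1, Arsa, Sgsh, Npc2 and Psap. There 13.7% of 19827 genes were called lower and 10.1% higher, and the treated group is then 1 library assumed to vary like the other groups. Without library 1, no gene of the 37 was called, and 0.0% of all genes were in either direction.

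The test of whether the Aza effect differed between dXist and wild-type XEN called none of the 37 genes by edgeR or DESeq2, and none had an unadjusted p under 0.05, where 8.0% of all genes did. The background was 0.00544% called higher and 0.239% lower by edgeR, and 0.43% and 0.756% by DESeq2. Without treated dXist library 2, 5 genes were called lower: Ctsa, Ctsd, Gaa, Arsa and Psap. There 5.16% of all genes were called lower and 2.93% higher. The treated wild-type libraries are of another type than the rest, which cannot be told apart from the effect of Aza here.

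In EpiSC, edgeR called no lysosomal gene after the Xist deletion, in a fit of 4 libraries with 2 residual degrees of freedom. Xist itself, at 206 and 815 CPM in wild type and 0.276 and 0.435 CPM in dXist, was not called either. The lack of calls therefore does not show that levels were unchanged. Of the 37, 36 passed the filter on low counts and none was called by edgeR, where 0.0% of 17132 genes were called in either direction. Aga was the only one with an unadjusted p under 0.05, where 10.2% of all genes had one, and the only one that DESeq2 called. Ctsc failed the filter, with 0 counts in both wild-type libraries and 1 and 2 counts in dXist. Comparing libraries of the same type, 13 genes were higher in dXist in both pairs, 12 lower in both and 12 opposite, and 1 gene differed more than 2-fold in both. The groups did not overlap for 13 genes that were higher, Ctsc among them, and 8 that were lower, where 20.5% and 22.3% of all genes did so.

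The gene that differed more than 2-fold in both pairs was Aga, encoded at chr8:53511727-53523421 on GRCm38. It was counted 163 and 71 times in wild-type EpiSC (4.60 and 3.44 CPM) and 1 and 2 times in dXist EpiSC (0.0272 and 0.0921 CPM). Pooled over the 2 libraries of a group and scaled to their pooled library size, the counts gave a ratio of 81.3, with a 95% counting interval of 27.5 to 397. In the edgeR fit the log2 change was -6.08 (SE 0.72, adjusted p = 0.112, range 7.20e-19 to 0.255 over the alternatives). It passed the threshold in 6 of 10 settings. Among them were DESeq2, which called 0.671% of genes higher and 2.2% lower, and a 13-library fit with a term for library type (adjusted p = 0.00190), where 0.0% were called higher and 0.00959% lower. With library type, which follows the replicate number, as a term in the EpiSC fit, Aga was lower and Arsa higher, where 4.91% of genes were called higher and 6.53% lower. Aga failed under both other scalings, without wild-type EpiSC library 1 and without dXist EpiSC library 1. No XEN library held less than 79.5 CPM of Aga. Fibroblast markers differed between the same EpiSC groups. Dcn stood at 7.82 and 7.65 CPM in wild type and 0.163 and 0.138 CPM in dXist. Thy1 overlapped, at 7.98 and 3.68 CPM against 4.89 and 3.54 CPM. Any link of such cells to Aga was not tested.

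The difference between the Xist deletion effects in EpiSC and XEN was called for 1 of the 37 genes, Aga, where 0.00507% of 19733 genes were called lower and the same share higher. Its log2 difference was -6.38 (SE 0.57, adjusted p = 0.00906) in the fit of the 9 untreated libraries. The separate EpiSC and XEN fits gave changes of -6.08 and 0.26, and the dXist XEN libraries held 114, 101 and 93.7 CPM. The call held in 12 of 15 settings and was lost without dXist EpiSC library 1 (adjusted p = 0.153), without wild-type XEN library 2 (0.0884) and without dXist XEN library 1 (0.0616). DESeq2 called 3 genes, Aga, Asah1 and Lamp2, all lower, where 1.09% of genes were called higher and 1.17% lower. The genes nearest to Aga, chosen after its values were seen, were Neil3 (63.4 kb away), at 16.6 and 8.76 CPM in wild-type EpiSC and 7.66 and 6.58 CPM in dXist, and Vegfc, at 2.17 and 1.89 CPM and 0.951 and 1.20 CPM.

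Among the X-linked genes in EpiSC, Gla stood at 15.9 and 19.8 CPM in wild type and 18.3 and 18.5 CPM in dXist (log2 change 0.06, SE 0.26). Lamp2 stood at 299.8 and 152 CPM against 147 and 124 CPM (-0.71, SE 0.41, adjusted p = 0.626), and Ids at 92.5 and 38.1 CPM against 46.0 and 27.1 CPM (-0.81, SE 0.52, adjusted p = 0.656). None was higher in dXist than in wild type by more than the spread of the wild-type pair. Lamp2 was lower in dXist in both pairs of libraries of 1 type, by 1.03 and 0.29 on the log2 scale. The related X-linked genes Tfe3 (0.40), Atp6ap1 (0.05), Atp6ap2 (-0.37) and Rragb (0.44) were not called. The test of the difference between EpiSC and XEN gave -2.45 for Lamp2 (SE 0.70, adjusted p = 0.324), -1.72 for Ids (SE 0.62, adjusted p = 0.420) and -1.29 for Gla (SE 0.73, adjusted p = 0.555).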

How the data were processed

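RNA of 13 libraries was sequenced. The deposited table gives the count of reads per gene, not normalized. FastQC, the aligner STAR (2.7.9a) and the read counter featureCounts (2.0.1) stand in the submitters' processing notes, as do the builds GRCm38 and mm10. Strand setting, multi-mapped reads and the kit of each library (NEBNext Ultra or TruSeq stranded, per the labels' protocols) are not given in the sources here. Reads shared by overlapping genes could therefore be assigned to either gene or left out. On the other strand, Pltp and Neurl2 overlap Ctsa, Fdft1 overlaps Ctsb, and Slc26a1 and Dgkq overlap Idua. Tmem202 overlaps Hexa and Grtp1 overlaps Lamp1 in the same way. So do Nelfcd with Ctsz, Gm20388 with Galns, Card14 with Sgsh, Rmc1 with Npc1 and Cap1 with Ppt1. Among protein-coding genes on the same strand, which a strand setting cannot separate, Gm49369 overlaps Ctsd and Tmppe overlaps Glb1. Ctsl has near copies expressed in placenta.

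Symbols, positions and exon lengths were those of GENCODE vM21 (GRCm38) and were found for 38240 of 38377 identifiers. Counts were fitted in R 4.3.3 with edgeR 4.0.16 (TMM, filterByExpr, robust quasi-likelihood F test, Benjamini-Hochberg over all genes tested, called under 0.05). The 9 untreated libraries shared a fit (5 residual degrees of freedom) for EpiSC against XEN and for the difference of deletion effects, the 9 XEN libraries another (5) and the 4 EpiSC libraries the last (2). A standard error is the absolute log2 change over the square root of F. The fit was tested on simulated counts. CPM are scaled by TMM over all 13 libraries. A fold against a group with no counts uses a floor of 3 counts over the group, which is 0.498 CPM in the shallowest single library, and a ratio with 1 to 3 counts has an exact 95% counting interval. Floors and intervals cover counting error only. Ratios of single libraries add 0.5 CPM.

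Alternatives were DESeq2 1.42.0, RLE scaling, library totals, no filter, the replicate number as a block, library type as a term over all 13 libraries, and leaving out each library. The 37 genes and the 7 related lists (100 genes) were chosen with earlier results of these data known. Named with values were the called genes, up to 15 each way between the cell types and 6 elsewhere, the X-linked genes, the 5 of highest level per length, any gene that failed the filter, and up to 3 called genes of each related list; some results on related genes are not reported here. Genes given beyond that rule (all those that are not X-linked in the Xist and Aza comparisons, Tfe3 between the cell types and the neighbours of Hexa, Gusb and Aga) were chosen after their values were seen. The markers are Gata4, Gata6, Sox17, Sox7, Foxa2, Dab2, Pdgfra and Lama1 (endoderm); Pou5f1, Nanog, Sox2, Fgf5, Pou3f1, Dnmt3b, Otx2 and Utf1 (epiblast); Col1a1, Col1a2, Col3a1, Thy1, Pdgfrb, Twist1, Dcn and Postn (fibroblast); Ptprc, Adgre1, Csf1r, Cd14, Itgam, Lyz2 and Tyrobp (macrophage); and a trophoblast list, which summed to 0.278 to 2.74 CPM over all libraries.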

Additional observations from a re-analysis of the deposited data

Results flagged for a closer look

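The change in Aga between dXist and wild type differed between EpiSC and XEN by a test of the difference itself. That difference was -6.38 on the log2 scale (SE 0.57, edgeR adjusted p = 0.00906). Aga was lower in both dXist EpiSC libraries than in both wild-type ones, and all 5 untreated XEN libraries held 79.5 to 114 CPM. The dXist EpiSC level of Aga rests on 1 and 2 counts, and the genes were chosen with earlier results of these data known. The 8 fibroblast markers together were also lower in dXist EpiSC (165 to 227 CPM) than in wild type (677 to 797 CPM). Their part in the Aga result was not tested. The labels do not say whether libraries were separate clones, so the deletion cannot be told apart from other differences between the cultures.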

How the results depend on the processing

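With 2 or 3 libraries a group, the number of genes called depended on the settings. Between EpiSC and XEN 27 genes were called, and 16 to 23 when a library was left out, with 16 without wild-type EpiSC library 1. Leaving out a library gave 0 to 2 calls for dXist in XEN, 0 for Aza in wild-type XEN, 0 to 13 for Aza in dXist XEN, 0 to 5 for the difference of Aza effects, 0 to 1 for dXist in EpiSC, and 0 to 2 for the difference of dXist effects. DESeq2 gave 2 calls for dXist in XEN, 1 in EpiSC and 3 for their difference. Without a filter there were 5, 1 and 4 calls in these comparisons and 2 for Aza in dXist XEN (Ctsd and Gaa, lower). Library type as a term gave 1 for dXist in EpiSC.

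Replicate numbers are shared between groups, but the labels do not say that they pair libraries. Deviations of same-numbered libraries correlated at 0.768 between the EpiSC groups, where the number follows library type, and at -0.159 to 0.173 among XEN groups. With the replicate block, 1 gene was called for dXist in XEN (Lipa, lower), 2 in EpiSC (Aga lower and Arsa higher, where 4.91% of genes were called higher and 6.53% lower), and 3 for the difference. No crossed pairing was tried.

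Of the log2 changes of named genes under the alternatives, 407 kept direction and side of the threshold, 19 passed it newly, 43 no longer passed it and 1 turned: Gla for dXist in EpiSC was -0.10 without wild-type EpiSC library 1 and 0.24 without library 2. Of the median log2 changes of the genes, 64 moved by less than the spread between replicates and 18 by more. The cause of these changes was not tested. In 1 library, 3 counts were 0.0815 to 0.498 CPM, so differences below that were not detectable; this bears on Hexa and Gusb in XEN, and on Ctsc and Aga in EpiSC.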
